A study of Paxillus involutus with 12 samples.

Results

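Of 12214 sequences measured in a starvation series of Paxillus involutus mycelium, 97 (0.794%) were higher at each of days 6, 8 and 13 than at day 2. Their means at these 3 harvests also lay within 0.5 log2 units of each other. They are called the kept-high sequences here. They were chosen from the mean log2 expression of the 3 arrays of each day: the lowest of the 3 later means had to lie at least 0.8 above the day 2 mean, and the 3 later means had to span less than 0.5. The lowest later mean minus the day 2 mean is called the step below, and the span of the 3 later means the later range. Both limits use every difference between days, so all day differences of the 97 are descriptions of how they were chosen and carry no test. A log2 difference of 1 is 2-fold.

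Mycelium of strain ATCC 200175 was grown without a plant partner, on glass beads in a minimal medium that held ammonium at a C/N ratio of 3. It had before been pre-cultured and kept for a day without nitrogen. The 12 samples were harvested at days 2, 6, 8 and 13 of the incubation, with 3 biological replicates per day, each a pool of 2 cultures, and each was hybridised to 1 subarray of a single 12-plex chip. All groups share the strain, the medium and the history without nitrogen. When the carbon of this medium ran out is not stated here. No cultures kept supplied with carbon are part of the series, so starvation and culture age cannot be told apart. The arrays of a day lie at consecutive array numbers, so position and day cannot be told apart either.

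Paxillus involutus is a basidiomycete that forms ectomycorrhiza, a symbiosis in which the fungus sheaths tree roots and trades soil nutrients for sugars made by the tree. Once it has neither a host nor sugar in the medium, a mycelium has to live on its own stores. Fungi in that state are known for autophagy, the enclosure of cytoplasm in vesicles that are broken down in the vacuole, for recycling of cell walls and proteins, and for release from the repression that glucose exerts on genes for other carbon sources. A group of transcripts that switches early and then holds its level is one of the shapes a starvation programme can take. The deposited files identify the sequences by number only and pair none of them with a gene. None of the 97 numbers occurred in the reference table of 18033 genes, so no function, chromosome or protein can be given to any of them.

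Over all sequences, the array medians ranged from 11.35 to 11.38 (log2), and a control of random sequence, which marks the background, ranged from 4.49 to 4.70. The 2 position numbers in the sample descriptions disagree between days 6 and 8, and the titles were followed. Exchanging these days leaves the choice of the 97 as it is, because the rule treats the 3 later days alike, but values given for day 6 and day 8 would change places. For the 97, 3 arrays stood apart from the others of their day, day 2 replicate 1, day 8 replicate 1 and day 13 replicate 2. Their values are given below, with the results without them.

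The typical kept-high sequence was about 2-fold up at each later day. The medians of their means over days 2, 6, 8 and 13 were 10.53, 11.81, 11.72 and 11.70. Relative to day 2, the median difference of the 97 was 1.12 (2.17-fold) for day 6, 1.18 (2.27-fold) for day 8 and 1.18 (2.26-fold) for day 13. Over all sequences the same 3 median differences were 0.0035, 0.023 and 0.033. The differences of the 97 ran over 0.80 to 2.49 for day 6, 0.81 to 2.42 for day 8 and 0.80 to 2.20 for day 13. The step had a median of 1.00, with quartiles of 0.91 and 1.16, and reached 1.5 in 6 sequences. The later range had a median of 0.29 and was under 0.1 in 10 sequences, under 0.2 in 28 and under 0.3 in 52.

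**Figure D1:**
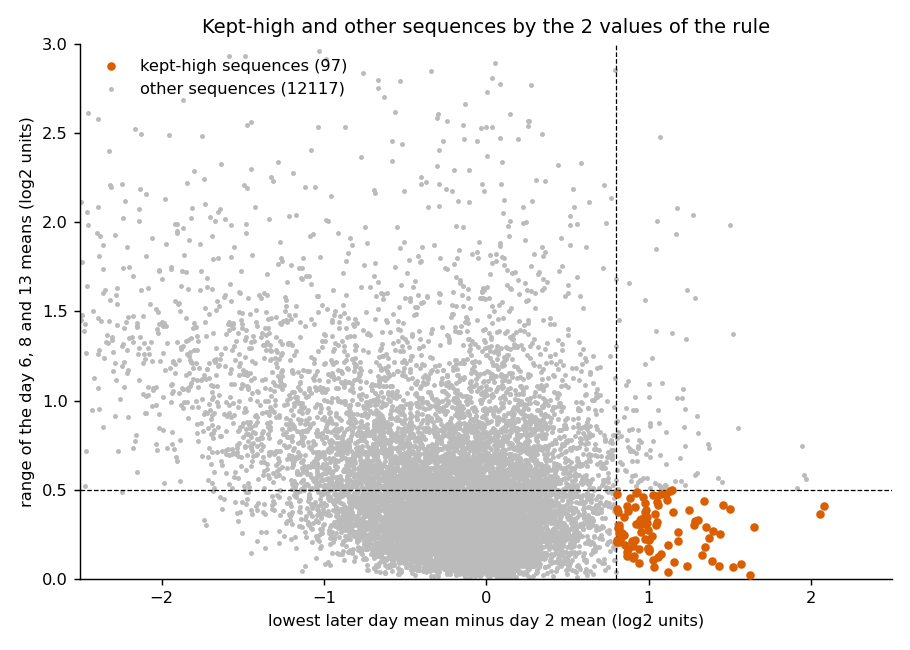
Each point is 1 sequence, placed by the lowest of its day 6, 8 and 13 means minus its day 2 mean (x axis, log2 units) and by the range of these 3 means (y axis, log2 units), with dashed lines at the limits of 0.8 and 0.5. The 97 kept-high sequences fill the lower right corner without a gap to the other 12117 sequences, of which 98 lie outside the plotted limits.

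All 97 were called higher than day 2 at day 6 (limma, adjusted p under 0.05), where 23.0% of all sequences were called higher. All 97 were also called at day 8, against 30.9% of all sequences, and at day 13, against 34.4%. A difference of at least 2-fold was seen in 68 of them at day 6, where 2.32% of all sequences had one. At day 8 the number was 80, against 4.19% of all sequences, and at day 13 it was 74, against 7.51%. The rule fixes these counts in large part. The 3 comparisons share the day 2 arrays, so they do not count as separate evidence.

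The early rise alone did not set the 97 apart. At day 6, 529 sequences stood at least 0.8 above day 2, and 18.3% of them met the whole rule. Of the other 432, 168 were still at least 0.8 above day 2 at day 8 but not at day 13, and 124 were below that mark on both later days. A further 35 were below it at day 8 and above it at day 13. The day 13 mean of 60 was at or below day 2. The remaining 105 kept the step at all 3 days but spanned 0.5 or more, and the highest mean of these was that of day 13 in 49, of day 8 in 44 and of day 6 in 12. The same rule turned round, with a fall of at least 0.8 and a later range under 0.5, held for 77 sequences, called the kept-low sequences below.

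The limits cut through a continuous cloud. Just inside the step limit lay paxillus_6849 with a step of 0.802 and paxillus_7308 with 0.804. Just outside it lay paxillus_10798 with 0.799 and paxillus_3925 with 0.797. Just inside the limit on the later range lay paxillus_5349 with 0.497 and paxillus_3668 with 0.494, and just outside it paxillus_6191 with 0.503 and paxillus_6808 with 0.504. The SD over the 3 arrays of a day lay between 0.060 and 0.84 in the last 4, so these distances from the limit are below the spread between replicates.

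Most of the kept-high sequences were below the median sequence at day 2, and fewer were afterwards. At day 2, 18 of the 97 were above the median sequence, and at days 6, 8 and 13 the numbers were 53, 55 and 55, so a large part stayed below it. Their median percentile among all sequences was 32.2 for day 2, 61.0 for day 6, 59.2 for day 8 and 58.2 for day 13. The day 2 means ran over 5.15 to 13.19. All 97 were summarised from 10 probe pairs. Only 3 came within 1 log2 unit of the random-sequence control on a day 2 array, and on the later arrays none did. These 3 are paxillus_11006, on all 3 day 2 arrays, and paxillus_10132 and paxillus_10979, each on replicate 2 only; paxillus_10979 is named because its values were seen. A day 2 value that close to the background gives little more than a bound on the level.

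The 2 sequences with the largest step lay more than 2 log2 units above day 2 at every later harvest, 1 of them from a day 2 level near the background. paxillus_12204 had 8.51, 7.61 and 7.79 on the 3 arrays of day 2, then 10.55, 10.53 and 10.29 at day 6, 10.04, 10.29 and 9.80 at day 8, and 10.37, 9.78 and 10.37 at day 13. Every later array was more than 1 log2 unit above the highest day 2 array, and the lowest later mean was 4.23-fold above the day 2 mean. The day 6 mean, 10.46 ± 0.14 (SD, n = 3), was the highest of the later means.

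paxillus_11006 was the dimmest of the 97 at day 2, with 5.37, 4.83 and 5.25, which is at most 0.67 above the control of the same array. It had 7.42, 7.43 and 7.30 at day 6, 7.27, 7.64 and 7.79 at day 8, and 7.64, 6.93 and 7.04 at day 13. No later array overlapped with a day 2 array. The measured step was 2.05, but with the day 2 values so near the control no fold is given. The other dim sequence, paxillus_10132, was at 5.87 ± 0.41 (SD, n = 3) at day 2, then at 6.87 ± 0.12, 6.86 ± 0.13 and 6.74 ± 0.19, a step of 0.87.

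The 2 brightest of the 97 at day 2 had later means in the order of time, lowest on day 6 and highest on day 13. paxillus_775 had 13.32, 13.20 and 13.03 at day 2, 14.11, 13.89 and 14.25 at day 6, 14.07, 14.12 and 14.28 at day 8, and 14.34, 14.28 and 14.27 at day 13. It had the highest day 2 mean of the 97, 13.19 ± 0.14 (SD, n = 3), and was 1.86-fold up at the least of the later days. paxillus_13330 was at 12.94 ± 0.21 at day 2 and at 13.95 ± 0.19, 14.07 ± 0.15 and 14.19 ± 0.05 at days 6, 8 and 13. In both, no later array overlapped with a day 2 array, and day 13 replicate 2 was not the lowest array of its day.

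Some of the largest steps came with little spread between arrays. paxillus_8213 had 12.27, 12.23 and 12.33 at day 2, 14.08, 14.07 and 14.21 at day 6, 13.90, 13.84 and 14.02 at day 8, and 14.33, 14.15 and 14.16 at day 13. Its day 2 arrays lay within 0.1 of each other, and the step was 1.65, or 3.13-fold. paxillus_837 had 11.08, 11.08 and 10.89 at day 2, 12.69, 12.60 and 12.70 at day 6, 12.63, 12.60 and 12.77 at day 8, and 12.49, 12.57 and 12.70 at day 13. The 9 later arrays of paxillus_837 overlapped between the days, and its later means spanned 0.08 after a step of 1.57. For paxillus_11134, the means of days 2, 6, 8 and 13 were 10.88 ± 0.10, 12.37 ± 0.11, 12.42 ± 0.13 and 12.77 ± 0.19 (SD, n = 3).

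In others, equal day means hid a wide spread. paxillus_8845 had the smallest later range, 0.022, with day means of 10.62 ± 0.07, 10.64 ± 0.19 and 10.63 ± 0.47 (SD, n = 3) at days 6, 8 and 13. Its 3 day 13 arrays read 10.75, 10.11 and 11.03 and its day 2 arrays 9.64, 8.56 and 8.78, so the flatness of its means is finer than the arrays can resolve. paxillus_1567 came next, with a later range of 0.036 around 12.73 ± 0.13, 12.73 ± 0.02 and 12.70 ± 0.24, while its day 2 arrays read 11.97, 11.39 and 11.37.

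**Figure D2:**
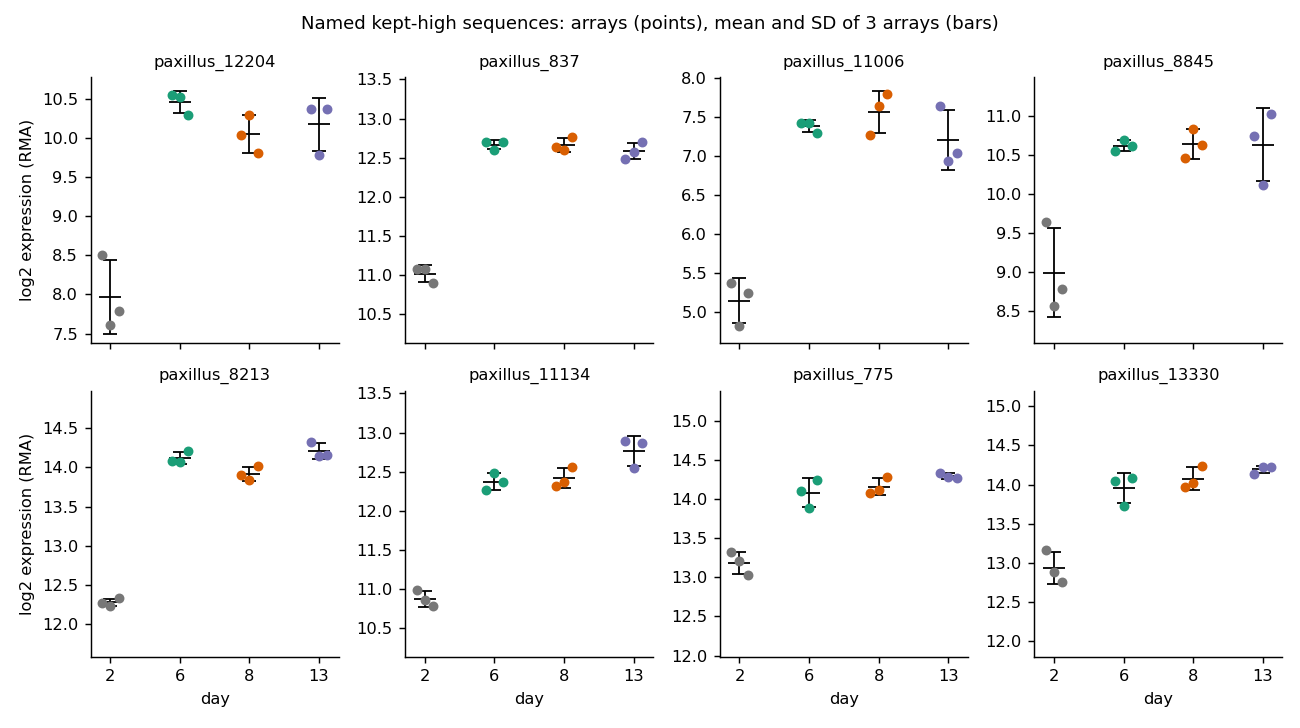
Log2 expression (y axis; each panel spans 3.4 log2 units) of 8 named kept-high sequences by day of harvest (x axis), with 1 point per array and bars for the mean and SD of 3 arrays. In each panel all 9 later arrays lie above the 3 day 2 arrays, and the day 2 points are close together in paxillus_8213 and wide apart in paxillus_8845.

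No later day led the group. The highest of the 3 later means fell on day 6 in 26 sequences, on day 8 in 40 and on day 13 in 31. The lowest fell on day 6 in 38, on day 8 in 22 and on day 13 in 37. Day 8 was above day 6 in 55 of the 97 and day 13 above day 8 in 37, with median differences of 0.072 and -0.060. The kept-low sequences looked different in this, since 68 of 77 were still lower at day 8 than at day 6, with a median difference of -0.17, although that contrast was not tested.

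Differences among the later days are bounded below 0.5 by the rule. No difference among days 6, 8 and 13 was called in 76 of them, and at least 1 was called in 21, where 71.7% of all sequences had one. Nothing is read from these counts or from the gap. Between days 8 and 6, 10 were called different, against 25.9% of all sequences, and 9 of the 10 were higher at day 8. The exception among these 10 was paxillus_6396, at 11.53 ± 0.02 (SD, n = 3) at day 8 and 11.88 ± 0.16 at day 6. With array weights 26 of the 97 were called, and in a fit of only these 6 arrays 34. Over all sequences these settings called 5787 and 5385, against 3158 in the main fit. paxillus_6396 is named because its values were seen.

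Between days 13 and 8, 11 were called different, against 54.1% of all sequences. Of these, 7 were lower at day 13, among them paxillus_10608 and paxillus_12205, and 4 were higher, namely paxillus_6396, paxillus_12611, paxillus_11134 and paxillus_8213. The rise of paxillus_12611, to 10.93 ± 0.19 (SD, n = 3) at day 13 against 10.47 ± 0.15 at day 8, was 0.47. It too is named because its values were seen, as is paxillus_10608, which stood at 8.97 ± 0.19 at day 13 against 9.37 ± 0.08 at day 8. Between days 13 and 6, 9 were called, against 58.5% of all sequences, and all 9 were higher at day 13. paxillus_7464, named for its values, was among them, at 11.96 ± 0.11 at day 13 against 11.50 ± 0.08 at day 6.

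These small counts changed when single arrays were left out. In each case given here the count over all 12214 sequences fell. The 10 between days 8 and 6 fell to 3, 5 or 5 without replicate 1, 2 or 3 of day 6. Over all sequences the 3158 called became 1751, 1850 or 2484. Without replicate 1, 2 or 3 of day 8 the 10 fell to 5, 3 or 1, and the 3158 to 2252, 2176 or 1520. The 11 between days 13 and 8 fell to 7 without day 8 replicate 1 and to 7 without day 8 replicate 3. The 6609 of all sequences fell to 5696 and 5843. The 9 between days 13 and 6 became 4 without day 6 replicate 1, 5 without day 6 replicate 3 and 4 without day 8 replicate 2. They became 5 without day 8 replicate 3, 4 without day 13 replicate 1 and 16 without day 13 replicate 2. In the same order, the 7143 of all sequences became 6239, 6466, 6869, 6968, 6967 and 6742.

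The arrays of day 2 and of the later days hardly overlapped. In 89 of the 97, all 9 later arrays lay above all 3 day 2 arrays, where 14.5% of all sequences did so. The day 6 arrays and the day 8 arrays lay above day 2 in all 97, but this was not counted over all sequences. The rule asks for a step of at least 0.8, so it fixes these counts in large part, and nothing is read from them. In each of the 8 sequences with an overlap, day 13 replicate 2 was the lowest later array and day 2 replicate 1 the highest day 2 array. paxillus_9247, named for its values, had the widest of these overlaps, with 11.01 on day 13 replicate 2 against 11.52 on day 2 replicate 1. Without either of these 2 arrays, no overlap was left in any of the 97.

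**Figure D3:**
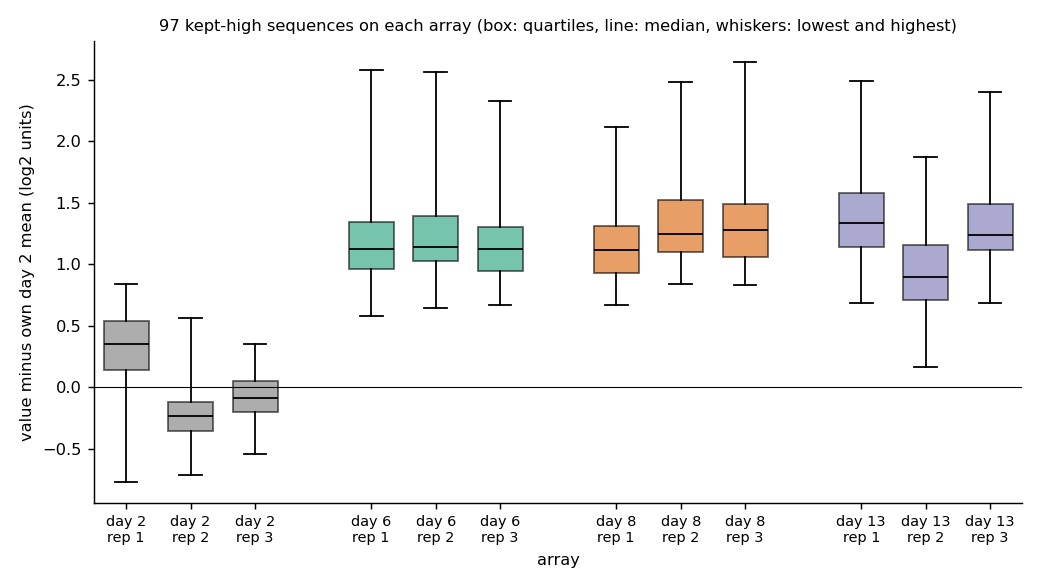
Values of the 97 kept-high sequences on each of the 12 arrays, each minus its own day 2 mean (y axis, log2 units), as boxes of the quartiles with the median as a line and whiskers to the lowest and highest sequence. The medians of the day 6 and day 8 arrays lie between 1.11 and 1.28, day 13 replicate 2 is lower than the other day 13 arrays at 0.90, and day 2 replicate 1 is the highest day 2 array at 0.35.

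The 97 moved together from replicate to replicate. The rule took day means and did not compare the arrays of a day, but these same arrays make up the means. How far the deviations within days took part in the choice was not tested. Day 2 replicate 1 was the highest of the 3 day 2 arrays in 80 of the 97, and the median deviation from the day mean was 0.35. Over all sequences that array was the highest in 29.3% and the median deviation was -0.033. Day 2 replicate 2 was the lowest in 64 of the 97, against 30.3% of all sequences, with a median deviation of -0.24.

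The later days showed the same. Day 13 replicate 2 was the lowest array of its day in 79 of the 97, with a median deviation of -0.27, while it was the lowest in 32.2% of all sequences. Day 8 replicate 1 was the lowest in 78 of the 97, by a smaller median of -0.11, against 34.0% of all sequences. At day 6 no array stood out in this way, and the medians of the 97 lay between -0.036 and 0.045.

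Taken over 3 days at once, 64 of the 97 (66.0%) had day 2 replicate 1 highest and both day 8 replicate 1 and day 13 replicate 2 lowest in their days. Of the other 432 sequences raised at day 6, 44.0% had all 3 features, of the kept-low sequences 2.60%, and of all sequences 10.1%. The opposite arrangement was seen in 1 of the 97, in 28.6% of the kept-low sequences and in 12.0% of all sequences. The shares were not tested against each other. The neighbours paxillus_4240 and paxillus_4241 show it within their values. paxillus_4240 had 12.43, 11.70 and 12.45 on the day 13 arrays, against 11.39, 10.02 and 10.70 on the day 2 arrays. paxillus_4241 had 12.20, 11.59 and 12.33 on the day 13 arrays, against 10.96, 9.85 and 10.24 on the day 2 arrays. In both, replicate 2 was the lowest on either day and replicate 1 the highest at day 2. The median correlation of the within-day deviations over the 4656 pairs of the 97 was 0.63, and 82.3% of the pairs were above 0. The pairs share the same 12 arrays.

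**Figure D4:**
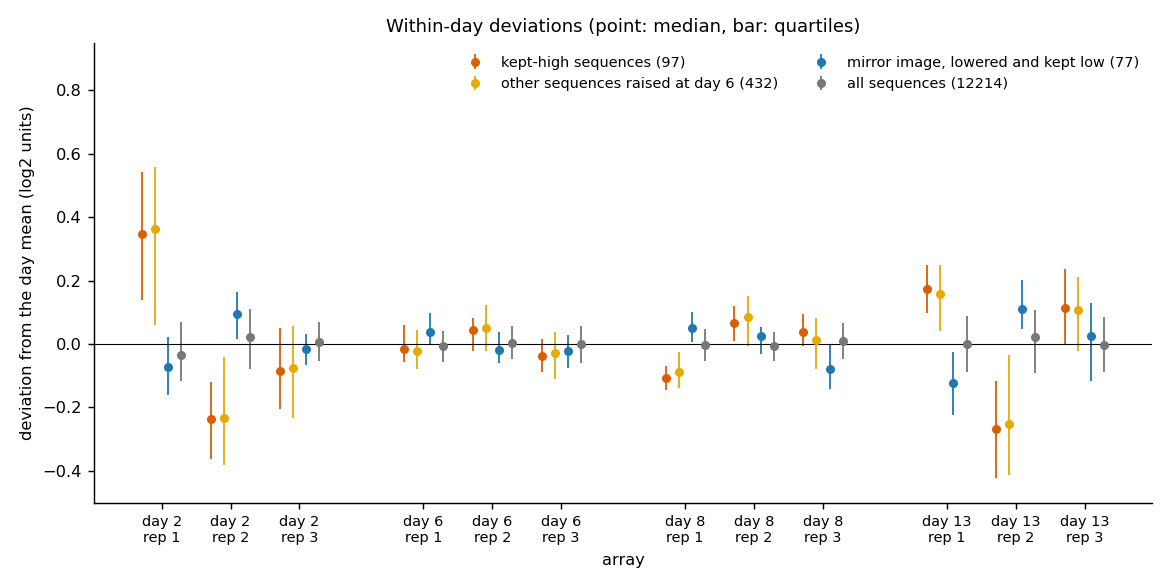
Deviation of each array from its own day mean (y axis, log2 units) on the 12 arrays (x axis), with points for medians and bars for quartiles over the 97 kept-high sequences, the other 432 sequences raised by at least 0.8 at day 6, the 77 kept-low sequences and all 12214 sequences. The first 2 groups are high on day 2 replicate 1, at 0.35 and 0.36, and low on day 13 replicate 2, at -0.27 and -0.25, while all sequences lie near 0 on every array.

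With these shared deviations, the 97 had larger SDs than the median of all sequences. The median SD over 3 arrays for days 2, 6, 8 and 13 was 0.34, 0.10, 0.12 and 0.26 in the 97. In the other 432 sequences raised at day 6 it was 0.38, 0.10, 0.14 and 0.27, so the wide spread was not confined to the 97. Over all sequences it was 0.13, 0.079, 0.077 and 0.14. The day 2 arrays were at least 0.5 apart in 63 of the 97 (64.9%), against 13.5% of all sequences, and at least 1 apart in 22. They lay within 0.3 of each other in 13. The number of the 97 with an SD above the median of all sequences was 87, 60, 78 and 87 for days 2, 6, 8 and 13. The 97 were chosen by means, so how far the spread took part in their choice was not tested.

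Leaving out the arrays that stood apart changed which sequences met the rule. Without day 2 replicate 1 the number was 153, of which 94 were among the 97. Without day 2 replicate 2, which is not among those 3, it was 75, with 67 of the 97. Without day 13 replicate 3, also not among them, it was 92, with 83 of the 97. Without day 13 replicate 2 it was 119, with 87 of the 97, and without day 8 replicate 1 it was 99, with 92. With day 2 replicate 1, day 8 replicate 1 and day 13 replicate 2 all left out, 207 sequences met the rule, 84 of them among the 97. Over the 12 runs that left out 1 array each, 46 of the 97 met the rule every time.

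**Figure D5:**
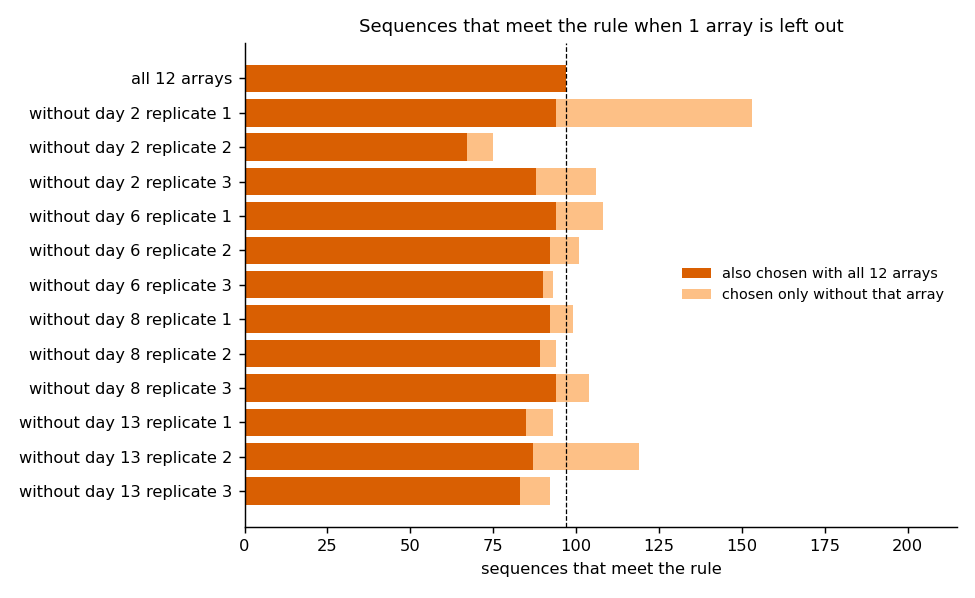
Number of sequences that met the rule (x axis) with all 12 arrays and with each array left out in turn, divided into those also chosen with all 12 arrays (dark) and those chosen only without that array (light), with a dashed line at 97. The number is highest, 153, without day 2 replicate 1 and lowest, 75, without day 2 replicate 2.

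A few of the 97 are neighbours by number. There were 7 pairs of consecutive numbers. In 4 pairs the values differed by less than 0.5 on every array: paxillus_3843 with paxillus_3844, paxillus_4240 with paxillus_4241, paxillus_4779 with paxillus_4780, and paxillus_5443 with paxillus_5444. The closest were paxillus_5443, with 11.95, 11.27 and 11.55 on the day 2 arrays, and paxillus_5444, with 11.96, 11.23 and 11.58. Over the 12 arrays these 4 pairs correlated at r = 0.984 to 0.993. All 97 were chosen for a like course over the days. High correlations are therefore not particular to neighbours, and nothing is read from these or from those of the other pairs below. Counted once each, the 4 close pairs leave 93 separate items.

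The other 3 pairs had like shapes at different levels. paxillus_5378 and paxillus_5379 correlated at r = 0.981 with day 2 means of 7.95 and 10.01, and paxillus_5348 and paxillus_5349 at r = 0.888 with 9.05 and 10.77. The sequence with the largest step, paxillus_12204, is followed in number by paxillus_12205, which began at a similar day 2 mean, 7.78 against 7.97, but had a step of 0.97 against 2.08. These 3 pairs are named because their values were seen. Of the 162 other neighbours of the 97 by number, 5 also had a step of at least 0.8, and their median step was -0.017, against -0.17 for all sequences. Whether consecutive numbers stand for the same gene is not given here.

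The profile of the 97 was shared by sequences that missed the limits. The correlation of each sequence with the mean profile of the 97 over the 12 arrays had a median of 0.958 among the 97, which contribute to that profile themselves, and 30 other sequences reached it. Closest was paxillus_8618 at r = 0.989, with 11.91, 11.66 and 11.67 at day 2, 12.20, 12.28 and 12.25 at day 6, 12.26, 12.28 and 12.27 at day 8, and 12.36, 12.08 and 12.35 at day 13. Its shape, with day 2 replicate 1 high and day 13 replicate 2 low, is that of the group at a smaller step of 0.50. paxillus_12164 followed at r = 0.983 with a step of 0.79, just short of the limit.

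The least typical of the 97 was paxillus_12250, at r = 0.718, named because its values were seen. It had 11.58, 12.92 and 12.56 at day 2, 13.36, 13.12 and 13.52 at day 6, 13.64, 13.53 and 13.80 at day 8, and 13.84, 13.68 and 13.59 at day 13. Its day 2 replicate 1 was the lowest array of that day, where it was the highest in 80 of the 97. The step of paxillus_12250 was 0.98, and 0.59 without that array, below the limit.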

How the data were processed

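Expression was measured in mycelium at 4 harvests with 3 arrays each, on 1-colour NimbleGen arrays. The deposited log2 values were made by the authors with RMA, per the file headers. RMA subtracts background, equalises the distributions of the arrays and combines the probes of a sequence, so a change in total messenger RNA is not visible. No RMA version is stated in the labels, and log2 was read from the range of the values. The number of probe pairs per sequence is another deposited column. The value table of the whole series differed from the array files by at most 0.

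Days and replicates were taken from the sample titles. Day means, the choice of the 97 sequences and all counts were computed with Python 3.11.15 and pandas 2.3.3. For calls, 1 linear model with 4 day means was fitted to the 12 arrays with limma 3.58.1 in R 4.3.3, with no replicate block and 8 residual degrees of freedom. Benjamini-Hochberg adjustment ran over all 12214 sequences within each comparison. The fit was checked on simulated data with independent noise and known changes at day 13 only. Deviations shared between sequences, as seen here, were not simulated, so the check does not cover them. Dim sequences were kept. With 3 arrays a day, the number of arrays sets the precision.

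The sequences and lists were chosen with earlier results of these data known. Named sequences follow a rule: the 2 with the largest step, overall and for each later day that was highest, the 2 brightest and 2 dimmest on day 2, the 2 flattest, those next to each limit, close neighbours by number, and the 2 others most like the mean profile. Exceptions are marked. Gene lists could not be used, since no source here pairs the numbers with genes. The alternatives were other scalings, limits, filters, thresholds and weights, medians, a replicate block, limma treat at 1.5-fold, only the 6 arrays compared, and leaving out each array.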

Additional observations from a re-analysis of the deposited data

How the results depend on the processing

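The limit on the step and day 2 replicate 1 moved the number of kept-high sequences most among the settings that changed 1 choice. It was 47 with a step of at least 1 and 236 with a step of at least 0.6, 77 and 126 with a later range under 0.4 and under 0.6, 75 to 153 with 1 array left out (153 without day 2 replicate 1), and 207 without day 2 replicate 1, day 8 replicate 1 and day 13 replicate 2 together, a setting chosen after seeing the data. It was 94 with arrays centred on their median, 90 after quantile normalization and 131 with medians in place of means, of which 77 were among the 97. A minimum fold of 1.5 in the test is stricter by construction and left 26 called higher for day 6, 61 for day 8 and 67 for day 13, and 0 in each comparison among the later days, also at an unadjusted p under 0.05 (limma treat). Over all sequences the same setting called 96, 567 and 1108 higher for days 6, 8 and 13. Between days 8 and 6, 13 and 8, and 13 and 6 it called 10, 984 and 1474 different. For the 97, the rule bounds differences among the later days below 1.5-fold, so their 0s were fixed by the choice of sequences. An adjusted p under 0.01 left 1, 4 and 2 called for days 8 and 6, 13 and 8, and 13 and 6. Over all sequences it left 1360, 4938 and 5617. For days 8 and 6, array weights gave 26 and a fit of these 6 arrays 34. Over all sequences they gave 5787 and 5385, against 3158 in the main fit. The cause was not tested. With 1 array left out, the numbers called higher were 97 for day 6, 97 for day 8 and 95 to 97 for day 13. Over all sequences they were 2207 to 2926, 3263 to 3888 and 3959 to 4137. Those called different among the later days were 1 to 13, 7 to 16 and 4 to 16. Over all sequences they were 1520 to 3602, 5640 to 6908 and 6239 to 7432. Replicate numbers share no stated source, and their deviations correlated at r = -0.30 to 0.63 over 18 pairs, 5 of them over 0.1. With the replicate block, 97, 97 and 97 were called higher than day 2, against 2766, 3764 and 4183 of all sequences. Among the later days 10, 10 and 8 were called, against 3099, 6540 and 7063. For the 33 named kept-high sequences, 495 values of the step were computed under other scalings, medians or 1 array left out. All kept their sign and moved by less than the largest SD of a day. For the runs with 1 array left out, this was bound to hold. Leaving out 1 array shifts only 1 day mean, and by less than the SD of that day. The steps were larger than any such shift, so their sign could not change. Nothing is read from these runs for the step. The 33 sequences had been chosen by their values in these same arrays.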
